A study of Homo sapiens with 12 samples.

Results

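This section describes how cultured 786-O cells with restored BBOX1 differed from cells with the empty vector. Polyadenylated RNA was measured in 6 of the 12 libraries of the series. They were all the culture libraries: 3 from cells with a lentiviral BBOX1 vector and 3 from cells with the empty vector. 786-O is an established cell line from a human clear cell renal carcinoma. Of the 58735 genes in the count table, 14960 had enough counts in the culture libraries to be tested, and every one of them was considered. Both groups were infected with lentivirus made in HEK293T cells in the presence of polybrene (8 µg/ml) and then selected with puromycin (2 µg/ml) or neomycin (0.8 mg/ml), whichever the vector called for; the labels do not say which drug was used for which group. Both were grown in 6-well plates in DMEM with 10% serum. The other 6 libraries came from xenografts of the same kinds of cell in NSG mice of 6 to 8 weeks, which lack T, B and NK cells, and they are used here only for a comparison at the end. The labels give triplicates but do not say that they were separate cultures or infections. The p-values set the difference between the groups against the spread of the 3 libraries within each group. That spread may be technical only, so the p-values may not cover variation between separate cultures or infections. Nor do the labels say whether the infected cells were a pool or a single clone. Differences that arose with infection or selection therefore cannot be told apart from those due to BBOX1. Where an effect of BBOX1 is named below, the difference between the groups is meant.

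BBOX1, gamma-butyrobetaine hydroxylase, carries out the last step of carnitine synthesis and needs iron, oxygen and 2-oxoglutarate. Carnitine carries long-chain fatty acids into mitochondria, and the kidney is one of the organs that make it. Clear cell renal carcinomas are known for loss of VHL and hence for constitutive activity of the hypoxia-inducible factors, and 786-O cells lack functional VHL. The series title places BBOX1 beside the kinase TBK1, which phosphorylates autophagy receptors and innate immune factors, and beside mTORC1, the kinase complex that couples amino acid supply to ribosome and protein synthesis.

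BBOX1 itself was read first, as a check of the labels. It had 29085, 20202 and 16953 counts in the 3 BBOX1 libraries, which is 1093, 1113 and 1092 CPM (counts-per-million, scaled for library composition), and 0 counts in each empty-vector library. If the 3 empty-vector libraries together are given a floor of 3 counts, the level with BBOX1 was at least 20113-fold higher. The antisense gene BBOX1-AS1, which overlaps it and cannot be told apart from it where strand is not recorded, had 0, 0 and 0 counts with BBOX1 and 1, 0 and 1 in the controls. Transcripts of the kinases in the title showed no change past the threshold. TBK1 stood at 29.3, 29.4 and 25.4 CPM in the BBOX1 libraries and 27.7, 27.1 and 29.7 CPM in the controls, overlapping ranges (log2 fold change -0.0042, SE 0.07, edgeR adjusted p = 0.981). MTOR stood at 147, 147 and 146 CPM and 152, 152 and 142 CPM, again with overlap (log2 fold change -0.02, SE 0.03, edgeR adjusted p = 0.753). Neither value bears on the activity of the kinases, which RNA does not measure.

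The culture libraries held 15627686 to 26758712 counts each, 99.8% to 99.9% of them in tested genes. Replicates differed little: the biological coefficient of variation was 3.33%, against 16.7% among the xenografts. Chi-square per degree of freedom over genes was 1.92 to 2.82 between libraries of a group and 6.59 to 9.69 between groups, so no 2 libraries differed by less than the sampling noise. The first principal component separated the groups and held 63.0% of the variance. Empty-vector replicate 3 had 3.54% of its counts in mitochondrial genes, where the other 5 had 3.22% to 3.25%. Of 19 markers of renal tubule and renal carcinoma, 15 had at least 10 counts in a library and LRP2, SLC22A6 and UMOD were at 0 in all 6; their summed level was 4089 to 4124 CPM with BBOX1 and 4278 to 4290 CPM with the empty vector. Of 11 immune markers 3 reached 10 counts, and CD3E, HBB, LYZ, MS4A1 and TYROBP were at 0 (summed level 2.19 to 3.27 CPM with BBOX1, 3.60 to 4.90 CPM without). Of 7 endothelial markers 2 reached it, with CDH5 at 0 (17.3 to 17.5 CPM and 17.7 to 18.7 CPM), and of 9 fibroblast markers 4 reached it, with COL1A2 at 0 (9.26 to 11.3 CPM and 10.6 to 11.4 CPM). In bulk libraries such as these, fewer cells with a transcript and less of the transcript per cell cannot be told apart.

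The difference between the groups was broad and shallow. Matrix and adhesion transcripts such as FN1 and COL6A3 were among the abundant ones that fell. The carrier subunits SLC7A5 and SLC3A2, the BMP target ID3 and the cell cycle inhibitor CDKN1A were among those that rose. A part of the transcripts of the ribosome and the vacuolar proton pump rose by small amounts. At an adjusted p under 0.05 in edgeR's quasi-likelihood test, 2452 of 14960 tested genes passed (16.4% of tested genes), 1276 of them higher (8.53%) and 1176 lower (7.86%). CPM did not overlap between the groups for 31% of tested genes, 15.6% higher and 15.4% lower. The median called gene changed 1.14-fold, 1.12-fold among those that rose and 1.17-fold among those that fell, and 90% of the calls were under 1.42-fold. Falls reached further than rises. At least 1.2-fold were 208 rises and 487 falls, at least 1.5-fold 34 and 149 (both together 1.22% of tested genes), and at least 2-fold 12 and 41 (0.354%). A test against a fold of 1.2, with edgeR's glmTreat, called 18 genes higher (0.12%) and 85 lower (0.568%).

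The number of calls differed between fits. In 1 fit of all 12 libraries, in which cells and xenografts share 1 estimate of the spread (coefficient of variation 11.9%) and 16927 genes were tested, 1 gene was called higher in culture, BBOX1, and 1 lower, SYT12 (chosen after its values were seen). With DESeq2 891 were higher and 693 lower. Leaving out each library in turn gave 956 to 1180 higher and 873 to 1011 lower, and 632 rises and 571 falls were called in every such fit. Unless a library is named, each called gene named below kept its call without any 1 culture library. Called genes named below, other than PECAM1, were chosen among those whose CPM did not overlap between the groups. That their groups lie apart was therefore set by the choice and is no further support.

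Stretches of promoter are shown for 4 abundant genes described first below, 2 that fell and 2 that rose: the matrix genes FN1 and COL6A3, SLC7A5, an amino acid carrier, and BST2, an interferon-inducible gene that rose. Each is the 250 bases before the gene's annotated start in RefSeq (GRCh38.p14), 5′ to 3′ on the gene's strand, which is the minus strand for all 4. Capitals mark GC boxes (GGGCGG), a cyclic AMP response element (CRE, TGACGTCA), an E-box (CACGTG) and interferon-stimulated response elements (ISRE, GAAANNGAAA), each searched on both strands. They lie at chr2:215436069-215436318 (FN1), chr2:237414165-237414414 (COL6A3), chr16:87869508-87869757 (SLC7A5) and chr19:17405631-17405880 (BST2).
FN1: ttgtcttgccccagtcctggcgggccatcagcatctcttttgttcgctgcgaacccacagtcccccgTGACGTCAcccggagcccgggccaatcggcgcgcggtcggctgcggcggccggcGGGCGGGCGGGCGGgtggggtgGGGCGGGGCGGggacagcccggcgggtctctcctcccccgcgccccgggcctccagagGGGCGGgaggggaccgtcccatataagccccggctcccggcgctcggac
COL6A3: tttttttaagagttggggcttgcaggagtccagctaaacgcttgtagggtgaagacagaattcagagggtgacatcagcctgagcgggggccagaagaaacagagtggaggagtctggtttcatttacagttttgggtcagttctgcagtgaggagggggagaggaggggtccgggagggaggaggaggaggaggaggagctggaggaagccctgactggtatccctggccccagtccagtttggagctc
SLC7A5: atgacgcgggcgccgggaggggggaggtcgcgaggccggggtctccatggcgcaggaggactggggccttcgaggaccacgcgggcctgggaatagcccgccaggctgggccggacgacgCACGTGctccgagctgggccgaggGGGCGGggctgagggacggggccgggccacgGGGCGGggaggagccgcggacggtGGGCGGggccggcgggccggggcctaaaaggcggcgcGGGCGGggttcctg
BST2: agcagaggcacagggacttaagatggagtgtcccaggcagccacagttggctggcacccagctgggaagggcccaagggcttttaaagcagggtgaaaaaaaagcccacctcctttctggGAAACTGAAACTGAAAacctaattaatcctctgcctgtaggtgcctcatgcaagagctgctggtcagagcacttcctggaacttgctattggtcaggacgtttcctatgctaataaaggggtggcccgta
The FN1 window holds 1 CRE and 6 GC boxes, some of them overlapping, and the COL6A3 window none of these motifs. SLC7A5 has 1 E-box and 4 GC boxes, and BST2 has 2 ISRE matches that overlap each other. For comparison, all 14596 windows of 9895 tested protein-coding genes were searched over 250 bases before and 50 after each start. Of these longer windows 65.9% hold a GC box, 9.28% this E-box, 2.81% this ISRE and 2.67% this CRE. A match is a string of letters and not evidence of a bound site.

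The shared fall of the 2 matrix genes was tight. FN1, which encodes fibronectin, the adhesive glycoprotein of the matrix, stood at 4369, 4084 and 4006 CPM with BBOX1 against 5912, 5746 and 5695 CPM with the empty vector. All BBOX1 libraries lay below all empty-vector libraries, and the gap was wider than either group's range (log2 fold change -0.48, SE 0.02, edgeR adjusted p = 1.78e-17). COL6A3, the large chain of the microfibrillar collagen VI, stood at 785, 758 and 766 CPM against 1225, 1173 and 1140.4 CPM, with the same clear separation (log2 fold change -0.61, SE 0.02, edgeR adjusted p = 8.02e-20). SLC7A5 is the light chain of LAT1, the exchanger that imports leucine and other large neutral amino acids. Its level was 1530.0, 1559 and 1594 CPM with BBOX1 and 1229, 1216 and 1172 CPM without, higher in each BBOX1 library than in any empty-vector library (log2 fold change 0.37, SE 0.02, edgeR adjusted p = 1.52e-14). BST2, or tetherin, holds budding enveloped viruses at the cell surface. It stood at 204, 204 and 195 CPM and 147, 142 and 142 CPM, and the groups were likewise apart (log2 fold change 0.49, SE 0.03, edgeR adjusted p = 1.58e-13).

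**Figure D1:**
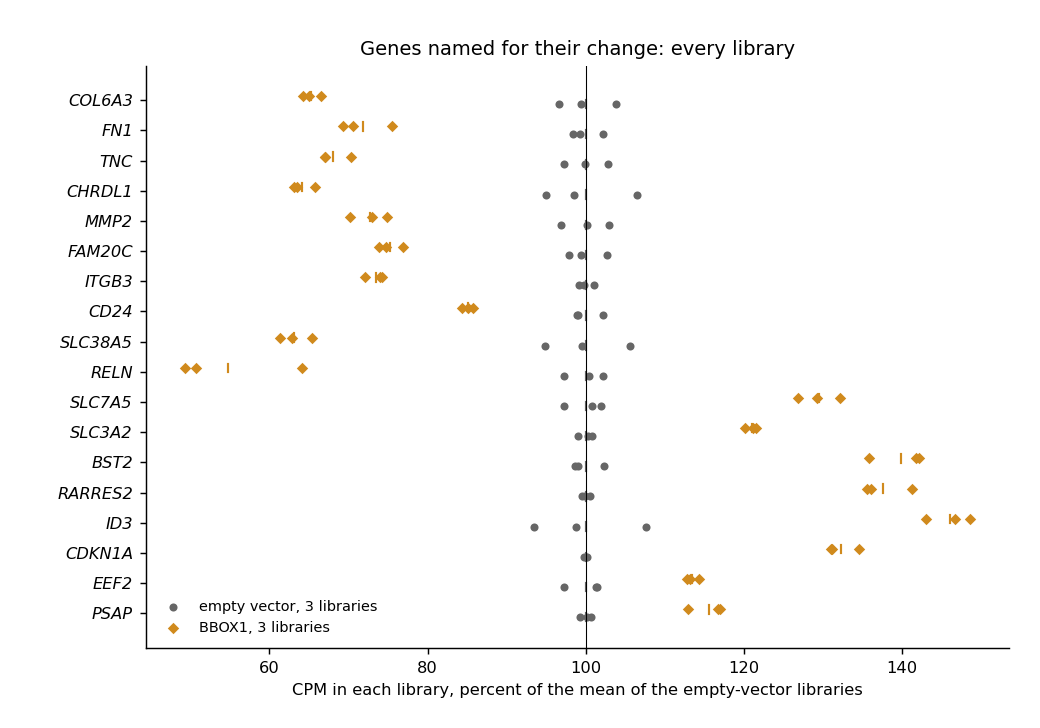
CPM of 18 genes in each of the 6 culture libraries, as a percent of the mean of the 3 empty-vector libraries (grey circles, empty vector; orange diamonds, BBOX1; short bars, group means). In every row, 10 falling genes and 8 rising genes, the 2 groups are apart. The genes were chosen among called genes whose CPM did not overlap, so this separation was set by the choice.

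Smaller changes passed at higher expression levels, and the 2 directions were spread unevenly over the range. Levels are given here per length, as TPM (transcripts-per-million) from counts and exon length, averaged over the 6 libraries. Among 90 genes at 1000 TPM and over, 33 rose and 6 fell, and the smallest called change was 1.04-fold. From 100 to 1000 TPM 603 rose and 154 fell of 1732, with a median called change of 1.10-fold. From 10 to 100 TPM the counts were 574 and 727 of 7551 (median 1.15-fold). From 1 to 10 TPM they were 63 and 261 of 4755 (1.41-fold), and under 1 TPM 3 and 28 of 832 (2.08-fold). Rises thus outnumbered falls among abundant transcripts and falls outnumbered rises among scarce ones. The precision followed the level: the median SE of a log2 fold change was 0.02 in the highest group, 0.03, 0.06 and 0.20 in the next ones and 0.39 in the lowest. The 95% interval lay within a 1.2-fold change for 96.7% of genes at 1000 TPM and over and for 6.88% of genes at 1 to 10 TPM. Below 1 TPM no gene reached it. A correction of the counts for gene length and GC content gave 24 rises and 21 falls at 1000 TPM and over, 476 and 157, 633 and 488 and 71 and 198 in the next 3 groups, and 5 and 21 under 1 TPM.

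**Figure D2:**
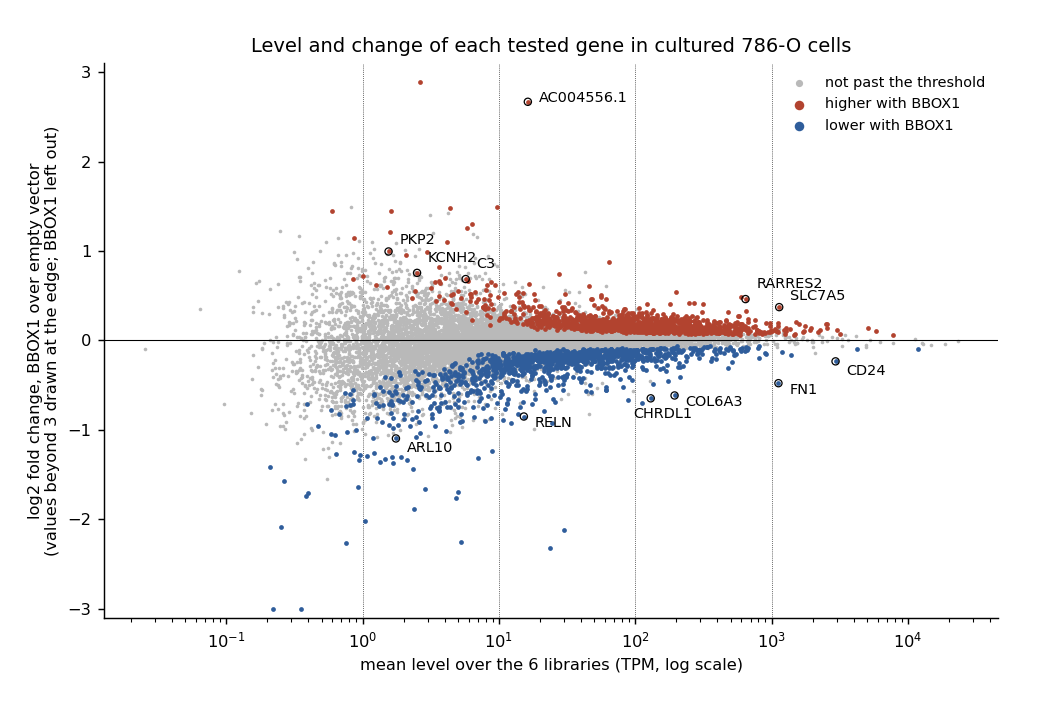
Log2 fold change of BBOX1 over empty vector against mean level in TPM (log scale) for each tested gene but BBOX1. Called genes, red for higher and blue for lower, reach within 0.1 of 0 at high levels and lie far from it at low levels, and genes named in the text are circled.

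**Figure D3:**
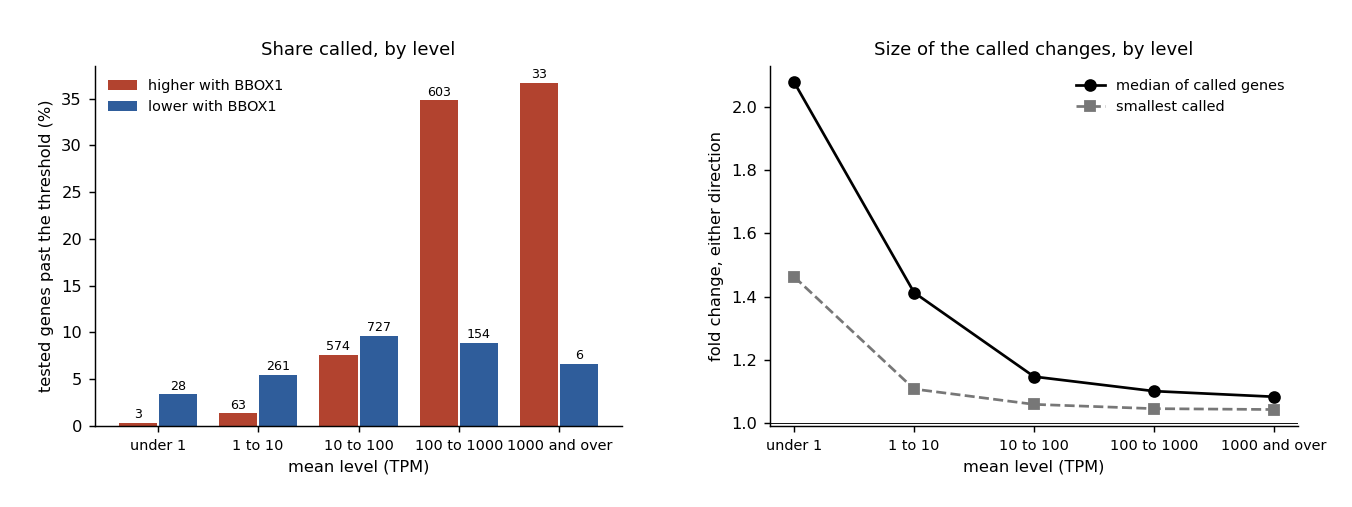
Left, percent of tested genes called higher (red) or lower (blue) in 5 ranges of mean TPM, with the number of genes over each bar. Right, median and smallest fold change of called genes, which shrink from 2.08 and 1.46 under 1 TPM to 1.08 and 1.04 at 1000 TPM and over.

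Among the most abundant transcripts the rises included genes of protein synthesis, stress and lysosomes. EEF2, the elongation factor that moves the ribosome along the message, stood at 2763, 2727 and 2735 CPM with BBOX1 and 2451, 2449 and 2350.0 CPM without (log2 fold change 0.18, SE 0.02, edgeR adjusted p = 3.94e-08). PSAP, the precursor of the lysosomal saposins, rose by 0.21 on the log2 scale (SE 0.02). HSPB1, a small heat shock protein, rose by 0.19 (SE 0.02), and CD70, a TNF family ligand that clear cell carcinomas often display, by 0.20 (SE 0.02). AKR1B1, the aldose reductase, rose by 0.17 (SE 0.02). Next to FN1, the abundant falls were led by CD24, a glycosylated surface protein, at 2127, 2147 and 2161 CPM against 2493, 2496 and 2576 CPM (log2 fold change -0.23, SE 0.02, edgeR adjusted p = 1.13e-10). All BBOX1 libraries were below all empty-vector libraries for CD24. ITGB1, the common beta chain of matrix receptors, fell by 0.13 (SE 0.02). The cytosolic chaperone gene HSP90AA1, on chromosome 14, fell by 0.16 (SE 0.02), and MT-ND4, a mitochondrially encoded subunit of complex I, by 0.10 (SE 0.02), a call that DESeq2 did not give (adjusted p = 0.136). HSP90AA1, MT-ND4 and CD24 have near-identical copies elsewhere in the genome, so their levels carry that uncertainty.

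Between 100 and 1000 TPM the largest rises included signalling and detoxification genes. RARRES2 encodes the secreted chemoattractant chemerin. It stood at 377, 363 and 362 CPM with BBOX1 and 266, 268 and 267 CPM with the empty vector, with no overlap (log2 fold change 0.46, SE 0.03, edgeR adjusted p = 8.62e-15). ID3, an inhibitor of helix-loop-helix factors and a direct target of BMP signals, stood at 107, 111 and 109 CPM and 80.3, 69.7 and 73.7 CPM (log2 fold change 0.55, SE 0.04). The cyclin-dependent kinase inhibitor CDKN1A stood at 162, 158 and 158 CPM and 120.3, 121 and 121 CPM (log2 fold change 0.40, SE 0.03). For both, all BBOX1 libraries were above all empty-vector libraries. The glutathione transferase GSTP1 rose by 0.40 (SE 0.03). The falls in this range included secreted proteins. CTHRC1, a secreted protein of repaired and invasive tissue, fell from 62.9, 64.5 and 61.6 CPM to 36.5, 40.5 and 39.9 CPM (log2 fold change -0.70, SE 0.05). CHRDL1, a BMP antagonist, fell from 151, 156 and 169 CPM to 99.96, 101 and 104 CPM (log2 fold change -0.65, SE 0.04). Both groups of 3 were apart for each of these genes. FAM20C, the kinase of secreted proteins in the Golgi, fell by 0.41 (SE 0.03), and DKK3, a secreted glycoprotein of the Dickkopf family, by 0.35 (SE 0.03). At 100 TPM or more only BBOX1 among the rises, and only CHRDL1, COL6A3 and CTHRC1 among the falls, changed at least 1.5-fold.

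From 10 to 100 TPM the largest falls were steeper. RELN, the secreted guidance protein reelin, fell from 63.9, 61.9 and 65.02 CPM to 40.8, 32.2 and 31.4 CPM (log2 fold change -0.85, SE 0.06, edgeR adjusted p = 6.50e-12). BBOX1 replicate 1 was the highest of its group and still below every empty-vector library. TNFRSF11B, the decoy receptor osteoprotegerin, fell by 0.93 on the log2 scale (SE 0.12), PNMA2 by 0.82 (SE 0.08) and the granule proteoglycan SRGN by 0.79 (SE 0.15). KCNIP3, a calcium-binding partner of potassium channels, fell by 0.76 (SE 0.08) and SYTL2, an effector of Rab27 in vesicle transport, by 0.71 (SE 0.06). Rises here included GDF15, a stress-induced cytokine, at 20.8, 18.4 and 18.2 CPM against 14.02, 13.1 and 13.2 CPM (log2 fold change 0.51, SE 0.09). BHMT2, which methylates homocysteine, rose by 0.46 (SE 0.06), and KYAT1, a kynurenine aminotransferase, by 0.48 (SE 0.10). The largest fitted rise of this range, AC004556.1 on an unplaced scaffold (log2 fold change 2.67, SE 0.56), rested on 1 library: it stood at 1.35, 1.21 and 13.8 CPM with BBOX1 and 0.551, 0.793 and 0.991 CPM without, and its edgeR adjusted p was 0.273 without BBOX1 replicate 3.

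From 1 to 10 TPM, changes nearer to 2-fold passed. PKP2, a desmosomal plakophilin, stood at 3.83, 4.19 and 3.22 CPM with BBOX1 and 1.65, 1.89 and 2.07 CPM without (log2 fold change 0.99, SE 0.21, edgeR adjusted p = 9.50e-04). The groups did not overlap, although the levels come from few counts. Complement C3 stood at 15.1, 14.7 and 15.3 CPM and 8.57, 10.8 and 8.74 CPM (log2 fold change 0.69, SE 0.10, edgeR adjusted p = 1.09e-05). The potassium channel gene KCNH2 rose by 0.76 (SE 0.18), and DHX58, a regulator of cytosolic RNA sensors, by 0.82 (SE 0.20). TM4SF19 rose by 0.99 (SE 0.30), but the call needed BBOX1 replicate 1 and empty-vector replicates 1 and 3 (adjusted p up to 0.118 in edgeR when 1 of these is left out). ARL10, a GTPase of the ARF family, fell from 7.22, 6.83 and 6.98 CPM to 3.27, 3.69 and 2.83 CPM (log2 fold change -1.10, SE 0.16, edgeR adjusted p = 3.12e-06). All 3 BBOX1 libraries lay below all 3 empty-vector libraries. LRRC17, a secreted leucine-rich repeat protein, fell by 1.31 (SE 0.32). Of the 34 rises and 149 falls of at least 1.5-fold, 28 and 124 were under 10 TPM.

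Some transcripts, chosen after their values were seen, were present in 1 group only or nearly so. PECAM1, an adhesion molecule of endothelium and blood cells, had 16, 15 and 15 counts in the empty-vector libraries and 1, 0 and 0 with BBOX1. That is a ratio of 50.5 of empty vector over BBOX1 (95% counting interval 8.62 to 2037), and the fall passed in edgeR. The leukocyte phosphatase gene PTPRC had 11, 8 and 7 counts with the empty vector and 0 in each BBOX1 library, at least 9.51-fold lower against a floor of 3 counts over the BBOX1 group. Both stand in the marker lists given above, where most immune markers and the endothelial CDH5 were at or near 0 in both groups. Intervals and floors here cover counting error only.

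Summed over genes, the changes in CPM were as follows. The 1275 genes that rose, BBOX1 left out, summed to 256933 CPM with BBOX1 and to 232965 CPM with the empty vector, a gain of 23968 CPM. The 1176 genes that fell summed to 130539 and 148646 CPM. Genes that did not pass summed to 12505 CPM more with BBOX1 over the 6166 with a higher mean, and to 268929 against 279078 CPM over the 6342 with a lower one. FLNA, the actin crosslinker filamin A, stood at 6413, 6299 and 6469 CPM with BBOX1 and 6063, 6020.3 and 5627 CPM without (log2 fold change 0.12, SE 0.02, edgeR adjusted p = 1.59e-04). All BBOX1 libraries were above all empty-vector libraries, with empty-vector replicate 3 the lowest. The cytoplasmic actin ACTG1 rose by 0.14 (SE 0.02), although reads of actin genes and their pseudogenes may be shared. After FN1, AHNAK, a giant scaffold under the membrane, lost most CPM: it fell from 2791, 2636 and 2551 CPM to 2272, 2037 and 2135 CPM (log2 fold change -0.31, SE 0.03).

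Gene classes are described next by how many tested members passed and by the median of all tested members. The lists and families were chosen with earlier results of these data known. Their counts therefore describe the classes and are no independent support for a change of a class. Over all tested genes the median was -0.00080, with 8.53% higher and 7.86% lower. Those shares varied with level: from 100 to 1000 TPM 34.8% were higher and 8.89% lower, and from 1 to 10 TPM 1.32% and 5.49%. Classes were not matched for level, so the rises of an abundant class were not compared with those of other abundant genes.

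**Figure D4:**
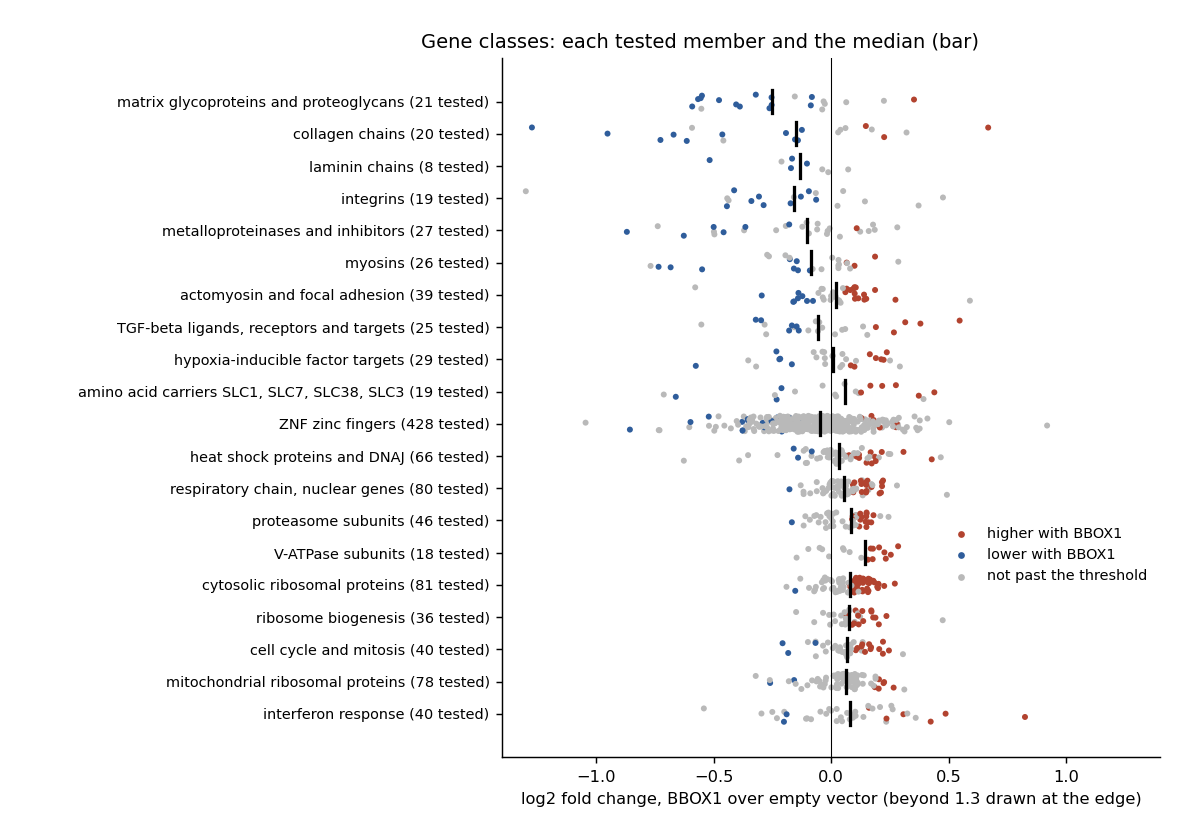
Log2 fold change of every tested member of 20 gene classes (red, called higher; blue, called lower; grey, not past the threshold; bars, class medians), with points beyond 1.3 drawn at the edge. Medians run from -0.25 for matrix glycoproteins to 0.14 for V-ATPase subunits.

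Genes of the extracellular matrix and its receptors fell in large numbers. Of 21 tested matrix glycoproteins and proteoglycans 13 fell and 1 rose (median -0.25); the rise was that of NID1, by 0.35 (SE 0.10), and was lost without BBOX1 replicate 1 (edgeR adjusted p = 0.148). TNC, the tenascin of remodelled matrix, fell from 184, 179 and 174 CPM to 126, 119.8 and 119.8 CPM (log2 fold change -0.55, SE 0.03, edgeR adjusted p = 3.26e-14), with the groups apart. The basement membrane linker NID2, on chromosome 14, fell by 0.56 (SE 0.06) and the microfibril protein FBN1 by 0.57 (SE 0.07). Among 20 collagen chains 10 fell and 3 rose (median -0.15; 6 falls with DESeq2). With COL6A3, its partner chain COL6A1 fell by 0.19 (SE 0.03). The fibril-associated COL12A1 fell by 0.67 (SE 0.10) and the anchoring-fibril chain COL7A1 by 0.15 (SE 0.03). The chains that rose were the paired basement membrane genes COL4A1, by 0.15 (SE 0.03), and COL4A2, by 0.23 (SE 0.03), which share a promoter region on chromosome 13, and COL5A2, by 0.67 (SE 0.11). Of 8 laminin chains 4 fell, among them LAMA5 by 0.52 (SE 0.04), LAMA3 by 0.17 (SE 0.03) and LAMC1 by 0.10 (SE 0.02), and 0 rose.

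Some receptors that hold cells to this matrix fell as well. Of 19 tested integrin chains 9 fell and 0 rose (median -0.16; 5 falls without empty-vector replicate 2). ITGB3, the beta chain of the vitronectin receptor, stood at 90.9, 88.3 and 90.6 CPM with BBOX1 and 124, 121 and 122 CPM without (log2 fold change -0.44, SE 0.04, edgeR adjusted p = 4.83e-11). Its partner ITGAV fell by 0.17 (SE 0.02), and the laminin receptor chain ITGA6 by 0.41 (SE 0.05). For ITGB3 each BBOX1 library was below each empty-vector library. Of 21 cadherins and protocadherins 4 fell and 0 rose, with the mesenchymal cadherin CDH11 down by 0.74 (SE 0.10), the membrane-anchored CDH13 by 0.44 (SE 0.06) and the renal cadherin CDH6 by 0.31 (SE 0.02). Among 27 metalloproteinases and their inhibitors 6 fell and 1 rose (median -0.10); that rise was lost without any 1 of BBOX1 replicates 1 and 2 and the empty-vector libraries. The gelatinase MMP2 stood at 185, 189 and 177 CPM and 253, 260.3 and 245 CPM, without overlap (log2 fold change -0.46, SE 0.03), the aggrecanase ADAMTS5 fell by 0.50 (SE 0.09) and ADAMTS12 by 0.63 (SE 0.13). Enzymes that mature collagen went both ways: 5 of 20 rose, or 3 without replicate 2 of either group, and 3 fell, with LOXL1 down by 0.55 (SE 0.10).

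Cytoskeletal genes went both ways. Of 39 genes of actomyosin and focal adhesions 14 rose and 8 fell (median 0.02). The rises were 9 without BBOX1 replicate 2, and the falls 5 without replicate 1 of either group or replicate 2 of BBOX1. FLNC, the filamin of muscle and stressed cells, stood at 1486, 1431 and 1523 CPM and 1281, 1231 and 1163 CPM (log2 fold change 0.27, SE 0.03), higher in each BBOX1 library. Of the 2 alpha-actinins of nonmuscle cells, ACTN4 on chromosome 19 rose by 0.14 (SE 0.02) and ACTN1 on chromosome 14 fell by 0.14 (SE 0.02). MSN, which links actin to the membrane, fell by 0.20 (SE 0.02). Among 26 myosin chains 8 fell and 3 rose, including the nonmuscle heavy chain MYH10, down by 0.14 (SE 0.03), and the vesicle motor MYO5B, down by 0.68 (SE 0.09). The myosin counts depended on single libraries: falls were 5 without replicate 1 of either group or BBOX1 replicate 2 and 4 without BBOX1 replicate 3, and rises were 1 when BBOX1 replicate 1, BBOX1 replicate 2 or empty-vector replicate 3 was left out.

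A part of the transcripts of the translation apparatus rose by small amounts. Of all tested genes at 1000 TPM and over 36.7% rose, and from 100 to 1000 TPM 34.8%. Of 81 cytosolic ribosomal proteins 40 rose and 1 fell (median 0.08), and their summed level was 42381 CPM with BBOX1 and 40137 CPM without. RPL30 stood at 422, 409.7 and 412 CPM and 350.5, 367 and 365 CPM (log2 fold change 0.20, SE 0.03, edgeR adjusted p = 8.66e-07). It is a protein of the large subunit, and its 2 groups were apart. RPL13A, of the large subunit too, rose by 0.18 (SE 0.02) and RPS19, of the small subunit, by 0.16 (SE 0.02). The fall was that of RPS4X, by 0.15 (SE 0.02); without BBOX1 replicate 2 or empty-vector replicate 1 there were 2 falls. Ribosomal protein genes have many processed pseudogenes, with which reads may be shared. Of 78 mitochondrial ribosomal proteins 6 rose and 2 fell, so their share was near that of all genes, and the falls were 1 or 0 without replicate 2 or 3 of either group.

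Genes that build ribosomes and supply their precursors rose in part. Of 36 ribosome biogenesis genes 14 rose and 0 fell (median 0.08; 8 rises without BBOX1 replicate 2 or 3 and 9 with DESeq2), including the assembly factors RRS1, by 0.24 (SE 0.04), and RRP12, by 0.20 (SE 0.04). Of 26 enzymes of polyamine and nucleotide synthesis 8 rose and 0 fell, or 5 rose without empty-vector replicate 3. The spermidine synthase SRM rose by 0.23 (SE 0.03) and the thymidine kinase TK1 by 0.22 (SE 0.03). Of 50 initiation factors 8 rose, or 4 with DESeq2, and 4 fell. The scaffold EIF4G1 rose by 0.13 (SE 0.02) and EIF5, on chromosome 14, fell by 0.18 (SE 0.03).

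Energy and protein turnover genes rose in part. Of 80 nuclear genes of the respiratory chain 17 rose and 1 fell (median 0.06; 10 rises and 0 falls with DESeq2). The rises were 11, 10 and 8 without BBOX1 replicate 1, BBOX1 replicate 2 and empty-vector replicate 3, in that order. Falls numbered 2 without empty-vector replicate 1 and 0 without any 1 of the other 5 libraries. NDUFS6, of complex I, rose by 0.21 (SE 0.04), and ATP5IF1, the inhibitor of the ATP synthase, by 0.22 (SE 0.04). The 13 mitochondrially encoded mRNAs gave 1 rise and 2 falls (median -0.04), but 9 falls after the correction for length and GC content. Without empty-vector replicate 3, the library of higher mitochondrial share, 1 fall was called. Without BBOX1 replicate 2 there were 0 rises and 1 fall. Of 46 proteasome subunits 16 rose (34.8%) and 1 fell (median 0.08). The fall was lost when any empty-vector library or BBOX1 replicate 1 was left out. Of all tested genes from 100 to 1000 TPM 34.8% rose too, so this share of rises was no higher than that of abundant genes. The core subunit PSMA7 rose by 0.15 (SE 0.03) and the lid subunit PSMD3 by 0.16 (SE 0.03).

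The vacuolar proton pump, which acidifies lysosomes, had the highest median of the 20 classes plotted. Of 18 V-ATPase subunits 9 rose and 0 fell (median 0.14). ATP6V0B stood at 124, 132 and 129.9 CPM with BBOX1 and 111, 108 and 105 CPM without (log2 fold change 0.25, SE 0.04, edgeR adjusted p = 5.28e-06), higher in each BBOX1 library. ATP6V1E1, of the cytosolic part, rose by 0.23 (SE 0.04). Of 36 other lysosomal genes 5 rose, the membrane protein LAMP1 by 0.19 (SE 0.03), and 2 fell, or 1 without BBOX1 replicate 1. Of 66 heat shock and DNAJ chaperones 13 rose and 3 fell. HSPH1, the nucleotide exchange factor of HSP70, rose by 0.22 (SE 0.03). Outside this family SEL1L, the adaptor of degradation at the endoplasmic reticulum, fell by 0.31 (SE 0.03) and lies on chromosome 14.

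Carriers went both ways. Of 223 tested solute carriers 27 rose and 20 fell (median 0.03), and of 19 in the amino acid families 6 rose and 3 fell (median 0.06). SLC3A2, the heavy chain that brings SLC7A5 to the membrane, stood at 383, 379 and 384 CPM with BBOX1 and 318, 316 and 312 CPM without, clearly apart (log2 fold change 0.28, SE 0.03, edgeR adjusted p = 7.70e-10). The glutamine carrier SLC1A5 rose by 0.17 (SE 0.03). SLC38A5, a carrier of glutamine and other small neutral amino acids, stood at 70.1, 68.4 and 72.95 CPM and 118, 111 and 106 CPM (log2 fold change -0.66, SE 0.04, edgeR adjusted p = 9.82e-14), lower in each BBOX1 library, and its relative SLC38A2 fell by 0.23 (SE 0.03). The cystine exchanger SLC7A11 fell by 0.21 (SE 0.04); after the length and GC correction its log2 fold change was -0.10 and did not pass (edgeR adjusted p = 0.102). Outside these families the taurine carrier SLC6A6 fell by 0.29 (SE 0.03). Of 52 ion channel genes 3 rose and 8 fell. Beside KCNIP3, its homologue KCNIP1 fell by 0.88 (SE 0.14) and the sodium channel gene SCN9A by 0.39 (SE 0.05).

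Genes of TGF-beta and BMP signalling went both ways. Of 25 tested ligands, receptors and targets 5 rose and 6 fell (median -0.06; 3 falls without BBOX1 replicate 1 or 2). Beside ID3, its homologues ID1 and ID2 rose by 0.32 (SE 0.04) and 0.27 (SE 0.05). The receptor TGFBR2 fell, from 149.6, 145 and 148 CPM to 119, 118 and 124 CPM, without overlap (log2 fold change -0.30, SE 0.03). Of 12 EGF receptors, ligands and regulators 1 rose and 4 fell. The rise was that of the ligand TGFA, by 0.22 (SE 0.03), and the falls included the ligand EREG, by 0.30 (SE 0.03), and the receptor antagonist LRIG1, by 0.82 (SE 0.15).

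Innate immune lists held calls in both directions. Of 40 interferon-response genes 6 rose and 2 fell (median 0.08), with IFIT3 up by 0.31 (SE 0.06) beside BST2 and DHX58; without empty-vector replicate 3, 0 fell. Of 22 NF-kappaB targets 5 rose and 3 fell, with the subunit NFKB2 up by 0.32 (SE 0.05), the adhesion molecule ICAM1 up by 0.23 (SE 0.05) and the adhesion molecule VCAM1 down by 0.22 (SE 0.03).

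Of 29 genes of the hypoxia-inducible factors and their targets 7 rose and 5 fell (median 0.0064). HIF1A stood at 49.997, 51.8 and 49.7 CPM with BBOX1 and 76.4, 72.5 and 76.8 CPM with the empty vector, the largest fall of the list (log2 fold change -0.58, SE 0.05, edgeR adjusted p = 2.88e-11). The 2 groups were far apart, and the gene lies on chromosome 14. Its RNA level does not measure the protein or its activity. The angiogenic factor VEGFA fell by 0.22 (SE 0.03) and BNIP3, a receptor of mitophagy, by 0.22 (SE 0.04), while CA12, a carbonic anhydrase of the cell surface, rose by 0.21 (SE 0.03).

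Lists of the kinases in the series title moved in few members. Of 39 genes of mTORC1 and nutrient sensing 6 rose and 1 fell (median 0.03); without BBOX1 replicate 1, 3 rose. RHEB, the GTPase that activates mTORC1, rose by 0.17 (SE 0.03), and so did AKT1S1, an inhibitor of mTORC1, by 0.16 (SE 0.03). The fall was that of RRAGA, a Rag GTPase that recruits mTORC1 to lysosomes, by 0.21 (SE 0.04). Of 20 genes of TBK1, its adaptors and autophagy receptors 3 rose and 1 fell. The fall was that of the autophagy receptor TAX1BP1, by 0.11 (SE 0.03), which did not pass when BBOX1 replicate 1, BBOX1 replicate 3 or empty-vector replicate 3 was left out (adjusted p up to 0.157 in edgeR) or after the length and GC correction (adjusted p = 0.417). The adaptor TRAF2 rose by 0.19 (SE 0.05). SQSTM1, another such receptor, stood at 393, 398 and 394 CPM and 344, 341 and 328 CPM (log2 fold change 0.23, SE 0.03), without overlap. Among 13 genes of carnitine synthesis and shuttling 2 rose, BBOX1 itself and SHMT2 (log2 fold change 0.11, SE 0.03), a mitochondrial enzyme of serine metabolism, and 0 fell.

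Metabolic and stress lists held calls in both directions. Of 25 genes of glycolysis and lactate 6 rose and 2 fell, or 1 fell without BBOX1 replicate 1. The enolase ENO2 rose by 0.21 (SE 0.04) and the hexokinase HK2 fell by 0.30 (SE 0.04). Of 26 genes of fatty acid oxidation, the pathway that carnitine feeds, 3 rose and 0 fell (median 0.01), with the hydratase ECHS1 up by 0.20 (SE 0.04). Of 33 genes of cholesterol and fatty acid synthesis 6 rose, or 3 without BBOX1 replicate 2, and 1 fell. The sterol sensor INSIG1 rose by 0.22 (SE 0.03) and the desaturase SCD fell by 0.10 (SE 0.02). Of 16 enzymes of serine, glycine and one-carbon metabolism 2 rose and 4 fell, the mitochondrial ALDH1L2 by 0.75 (SE 0.13). Targets of ATF4, the factor of amino acid stress, gave 6 rises and 7 falls of 29; SLC7A5, SLC3A2 and SLC1A5 are among the former with ATF5, up by 0.35 (SE 0.08). NRF2 targets gave 5 rises and 4 falls of 27, with 3 rises without any 1 library but empty-vector replicate 3. KEAP1, the sensor that restrains NRF2, rose by 0.19 (SE 0.04) and the exporter ABCC3 fell by 0.31 (SE 0.04).

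Lists of cell shape and growth signalling were likewise mixed. Of 27 targets of YAP and TEAD 8 rose and 5 fell, with 4 rises without BBOX1 replicate 3 and 5 without empty-vector replicate 2. ANKRD1 rose by 0.33 (SE 0.09) and LATS2, a kinase that inhibits YAP, by 0.26 (SE 0.06). Of 29 immediate early and ERK feedback genes 3 rose and 2 fell, or 5 rose without empty-vector replicate 1 and 1 fell without replicate 2 of either group or BBOX1 replicate 1. IER5 rose by 0.36 (SE 0.07) and EGR1 fell by 0.43 (SE 0.08). Of 46 dual specificity and tyrosine phosphatases 6 rose and 10 fell, with DUSP9 up by 0.62 (SE 0.15) and the receptor phosphatase PTPRG down by 0.31 (SE 0.04).

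Of 40 genes of the cell cycle and mitosis 12 rose and 3 fell (median 0.07), beside the rise of the inhibitor CDKN1A. E2F1, which drives entry into S phase, rose by 0.22 (SE 0.04), the transcription factor MYBL2 by 0.17 (SE 0.03) and UBE2C, a ubiquitin carrier of mitotic exit, by 0.22 (SE 0.03). The inhibitor CDKN2C rose by 0.20 (SE 0.04). All 9 MCM helicase genes were tested; 3 rose, MCM7 by 0.19 (SE 0.03), and 0 fell. The kinesin CENPE fell by 0.21 (SE 0.04), a call lost after the length and GC correction (edgeR adjusted p = 0.0927). Of 15 markers of renal tubule and carcinoma 4 fell, among them NNMT by 0.29 (SE 0.03) and MME by 0.47 (SE 0.09). GGT1, which has close copies, rose by 0.25 (SE 0.04); without empty-vector replicate 1, 2 markers rose.

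Of the 428 tested genes named ZNF, most of which encode zinc finger factors, 7 rose and 17 fell (median -0.05). Falls were 9 without BBOX1 replicate 1 or 2 and 11 without empty-vector replicate 3. ZNF622, a factor of large-subunit maturation, rose by 0.28 (SE 0.05).

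By gene type, the calls lay almost wholly among protein-coding genes. Of 12393 protein-coding genes 1233 rose and 1128 fell, of 1610 long noncoding RNAs 19 and 30, of 791 pseudogenes 22 and 14, and of 166 other genes 2 and 4. From 10 to 100 TPM 556 and 714 of 6963 protein-coding genes passed, and 9 and 6 of 272 long noncoding RNAs. The median SE in that range was 0.06 for protein-coding genes and 0.15 for long noncoding RNAs, so equal TPM did not mean equal precision. From 100 to 1000 TPM 590 and 151 of 1668 protein-coding genes passed, and 4 and 1 of 9 long noncoding RNAs. Of 24 host genes of small nucleolar RNAs 7 rose and 1 fell (median 0.11; 4 rises without BBOX1 replicate 1). SNHG7 stood at 86.8, 96.3 and 91.4 CPM and 71.7, 75.4 and 70.5 CPM (log2 fold change 0.33, SE 0.04), and all BBOX1 libraries were the higher ones. SNHG14 fell by 0.38 (SE 0.06). LINC01835 rose by 0.51 (SE 0.11) and LINC01559 fell by 1.08 (SE 0.24). The antisense gene AL445471.1 fell by 1.76 (SE 0.37) and the pseudogene AC233968.1 by 2.25 (SE 0.37). Without strand in the counts, antisense genes and SNHG7 cannot be told apart from the genes they overlap, and a pseudogene may share reads with its parent.

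DESeq2 moved further class counts by over 1.5 times. With it falls numbered 5 among myosins, 2 in the TGF-beta and BMP list, 6 among ZNF genes, 2 among enzymes of serine, glycine and one-carbon metabolism, 1 each in the interferon and the immediate early lists, and 0 each among mitochondrial ribosomal proteins, mitochondrially encoded mRNAs, proteasome subunits and the TBK1 list. Rises numbered 3 among NRF2 targets, 1 in fatty acid oxidation, and 0 each among matrix glycoproteins and metalloproteinases.

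Length and base composition moved with the change. Across 11790 protein-coding genes of at least 1 TPM, Spearman's rank correlation of the log2 fold change was -0.213 with gene length and 0.289 with GC content; these are correlations across genes of the same 6 libraries and genes are not independent replicates. In the lowest quartile of GC content (2946 genes) 62 rose and 459 fell, and in the highest (2946) 586 rose and 140 fell. In the quartile of shortest genes 400 rose and 107 fell of 2949, and in that of the longest 209 and 545 of 2947. After a correction of each library for both, 1209 genes were called higher and 885 lower, so that 57.7% of the calls were rises in place of 52.0%, and 13 called genes were called with the opposite sign. Of the reported calls 893 rises and 754 falls were shared, 383 rises and 422 falls were lost, and 316 rises and 131 falls were not among those reported. Among the classes, falls became 5 of myosins, 13 of solute carriers, 9 of ZNF genes, 3 each of cytosolic ribosomal proteins and of proteasome subunits, 4 of immediate early and ERK feedback genes, 1 each of mitochondrial ribosomal proteins and of polyamine and nucleotide synthesis, and 0 each of the interferon response and of the cell cycle. Rises became 3 each of collagen maturation enzymes and of mitochondrial ribosomal proteins, 5 of MCM genes and 1 of fatty acid oxidation. The median of matrix glycoproteins was then -0.27, that of collagens -0.17, that of integrins -0.10, that of cytosolic ribosomal proteins 0.06 and that of V-ATPase subunits 0.10. FN1 then had a log2 fold change of -0.40, COL6A3 of -0.54, SLC7A5 of 0.33 and BST2 of 0.41. Whether length and GC content had a part in these changes was not tested.

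Falls were also concentrated by position. Of 464 tested genes on chromosome 14, 164 fell (35.3%, where 7.86% of all tested genes fell) and 3 rose, and the median log2 fold change there was -0.18. On no other chromosome did the share of falls pass 13.6%, the value of chromosome 6. After the length and GC correction 132 fell and 4 rose on chromosome 14, and without any 1 library 116 to 142 fell. HIF1A, HSP90AA1, NID2, ACTN1, EIF5 and SEL1L lie there, and their falls stand beside this median. At the other end, 166 of 1022 genes on chromosome 19 rose (16.2%, where 8.53% of all tested genes rose) and 21 fell (median 0.05). BST2 and ACTN4 are among the genes that lie there, and their rises stand beside these shares. On chromosome 13, which holds COL4A1, COL4A2, LAMP1 and HSPH1, 35 of 253 rose and 5 fell (median 0.08).

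**Figure D5:**
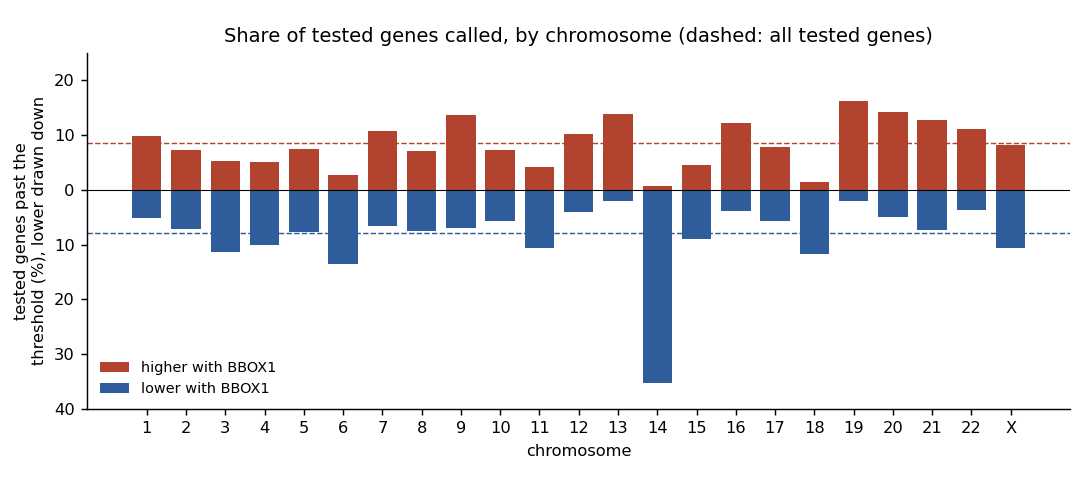
Percent of tested genes called higher (red, upward) or lower (blue, downward) on each chromosome; dashed lines mark 8.53% and 7.86%, the shares over all tested genes. Chromosome 14 stands apart, with 35.3% of its genes lower.

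The culture changes were then set beside those of the xenografts, in 1 fit of all 12 libraries in which cells and xenografts share their spread but no samples. In that fit 9.23% of 16927 genes were called higher and 12.4% lower in xenografts with BBOX1 (21.7% in all), and the difference between the 2 settings passed for 878 genes (5.19%). Culture calls in these counts are those of the 6 culture libraries alone. That count rests on single libraries. It was 4182 without BBOX1 xenograft replicate 1, 536 without BBOX1 xenograft replicate 3, 358 without empty-vector xenograft replicate 2 and 280 to 324 without any 1 culture library. Of the 149 culture falls of at least 1.5-fold, 148 were tested there: 92 had a negative and 55 a positive log2 fold change in xenografts, 46 were called lower, 5 higher, and 23 differed between settings. Of the 33 culture rises of that size, BBOX1 left out, 20 were positive and 12 negative in xenografts, 0 were called higher and 2 lower, and 2 differed between settings. Of all 1175 culture falls tested, 814 were negative in xenografts and 319 were called lower. Of all 1275 rises 596 were positive, 129 were called higher and 176 lower. Of 12483 genes not called in culture, 1252 were called higher and 1454 lower in xenografts.

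Single genes behaved in 3 ways. COL6A3 was called lower in both settings, with the culture call from the fit of the culture libraries alone. Its xenograft log2 fold change was -0.67 (SE 0.17, edgeR adjusted p = 0.0145). It stood at 575, 475 and 799 CPM in BBOX1 xenografts and 737, 1034 and 1264 CPM in empty-vector xenografts, which are overlapping ranges. The difference between settings did not pass (edgeR adjusted p = 0.931). FN1 was also called lower there (log2 fold change -0.37, SE 0.11), as were HIF1A (log2 fold change -1.54, SE 0.29) and PNMA2 (log2 fold change -1.60, SE 0.24). BST2 and ID3 passed in culture and had xenograft values of -0.04 (SE 0.15) and 0.07 (SE 0.12) that did not pass, with no called difference between settings. SLC7A5 turned around: in xenografts it stood at 575, 789 and 556 CPM with BBOX1 and 908, 932 and 872 CPM without (log2 fold change -0.45, SE 0.12), and the difference between settings was -0.83 (SE 0.16, edgeR adjusted p = 0.0117). Whether mouse reads were removed from the xenograft libraries is not given in the sources used here.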

How the data were processed

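The deposited table held raw read counts per gene for 12 libraries. Per the submitters' processing notes, fastp, STAR, featureCounts and DESeq2 were used with the build hg38; the sources used here give no versions, roles or strand setting. Per the labels' protocols, libraries came from 1 µg of RNA (NEBNext Ultra) and were read as 100-base pairs. All 58735 identifiers matched GENCODE release 29, which gave gene names, types and positions. The 6 culture libraries, of 15627686 to 26758712 counts, were fitted alone in R 4.3.3 with edgeR 4.0.16, using TMM scaling, a low-count filter (filterByExpr, minimum count 10), the quasi-likelihood F test and Benjamini-Hochberg adjustment over 14960 genes, with calls at an adjusted p under 0.05. SE is the absolute log2 fold change over the square root of F. CPM used TMM library sizes, and TPM used exon lengths from the same GENCODE release. The difference between settings came from 1 fit of all 12 libraries. Alternatives included DESeq2 1.42.0, glmTreat against a fold of 1.2, other filters, each library left out, a replicate block and spline offsets (4 degrees of freedom) for length and GC content. The fits and the offsets were tested on simulated data.

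The genes, 31 lists and 38 families were chosen with earlier results of these data known. Named genes were BBOX1, its antisense gene, TBK1 and MTOR, and, among called genes whose CPM did not overlap, up to 8 protein-coding genes per level range and direction by fold change, 8 per direction by CPM difference, 5 noncoding genes per direction and 4 members per list and direction by p; the text prints part of these, and some items are not reported here. SYT12, PECAM1, PTPRC and PABPC5 were added after their values were seen. Promoter windows from RefSeq were at hand for 9896 of 12393 tested protein-coding genes (79.9%).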

Additional observations from a re-analysis of the deposited data

Results flagged for a closer look

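For 26 of the 155 tested genes named in the report, the effect of BBOX1 in xenografts differed from that in culture at an adjusted p under 0.05 (edgeR's quasi-likelihood test of the difference, 12 libraries, 5.19% of 16927 genes called). Values are the log2 effect in xenografts minus that in culture. For 15 of them the call was kept in each of 12 fits without 1 library, and for 11 it was lost in at least 1.

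Of matrix genes that fell in culture, 4 had positive differences: 1.51 for ADAMTS5, 0.83 for LOXL1 and 0.69 for LAMA5, each kept in every such fit, and 0.46 for LAMA3, lost without any 1 of the 6 culture libraries (adjusted p up to 0.0776). KCNIP3, at 0.92, and SYTL2, at 1.06, kept theirs. SCN9A, at 0.48, lost it in 11 of 12 fits (adjusted p up to 0.144).

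Several amino acid carriers and enzymes had negative differences. SLC7A5 stood at -0.83, its partner SLC3A2 at -0.99, the glutamine carrier SLC1A5 at -0.83, the cystine exchanger SLC7A11 at -1.03 and the serine enzyme SHMT2 at -0.90, and all 5 were kept without any 1 library. SLC38A5, at -1.68, lost its call in 8 fits (adjusted p up to 0.0816). The difference of -0.55 for GGT1 was lost in 4 fits (adjusted p up to 0.0567).

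The ribosomal protein gene RPL30 stood at -0.56 and the large-subunit maturation factor ZNF622 at -0.62, kept in each of these fits. RPL13A stood at -0.45, lost in 7 fits (adjusted p up to 0.097).

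Of the other genes, PKP2 at -2.67, CA12 at -0.90 and the cell cycle factor MYBL2 at -0.75 kept their calls without any 1 library. FAM20C at -1.02 and BNIP3 at -0.57 each lost theirs in 8 fits (adjusted p up to 0.111 and 0.0885). ICAM1 at -0.67 lost it in 7 (up to 0.0965), LINC01835 at -3.80 in 9 (up to 0.135) and HSP90AA1 at -0.73 in 10 (up to 0.114). BBOX1 itself stood at -5.93, a fitted value that depends on the prior count because the culture controls are at 0, and it was lost without empty-vector culture replicate 3 (adjusted p = 0.0608).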

How the results depend on the processing

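Counts of genes higher and lower in culture were 1276 and 1176. They stayed within 1.5 times of these under other scaling (1271 and 1177), no filter on low counts (1198 and 1099), a filter of 1 CPM in 3 libraries (1258 and 1229), protein-coding genes alone (1250 and 1227), the length and GC correction (1209 and 885) and without any 1 library (956 to 1180 and 873 to 1011). They moved further with all 12 libraries in the fit (1 and 1), with glmTreat (18 and 85) and, for falls, with DESeq2 (891 and 693). The cause of these shifts was not tested.

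The 878 differences between settings became 1712 with DESeq2, 1662 with no filter and 280 to 4182 without 1 library. TBK1, which never passed, turned positive after the length and GC correction (log2 fold change 0.051), and MTOR did too (0.023); without 1 library the TBK1 value ran from -0.040 to 0.055.

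The labels do not say what the replicate numbers share. Deviations of same-numbered culture libraries correlated by 0.0519, 0.0404 and 0.0569, each sample best with its own number, which is a hint from the data and not the design. With the replicate number as a block, 1263 genes were higher, 1163 lower and 276 differed between settings; together with the length and GC correction 1241 were higher and 904 lower, with TBK1 at 0.044 and MTOR at 0.021. Of the 26 named differences between settings 13 did not pass with the block (edgeR adjusted p 0.0511 to 0.138): BNIP3, FAM20C, GGT1, HSP90AA1, ICAM1, LAMA3, LINC01835, RPL13A, RPL30, SCN9A, SLC38A5, SLC7A11 and ZNF622. Depth limits what could be seen at low levels: under 1 TPM the median SE was 0.39.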
